A study of Mus musculus with 2 samples.

Results

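The G1 regulators described here are 10 genes chosen by symbol: the D-type cyclins Ccnd1, Ccnd2 and Ccnd3, the cyclin-dependent kinases (CDKs) Cdk2, Cdk4 and Cdk6, the CDK inhibitors Cdkn1b and Cdkn2c, and the pocket proteins Rb1 and Rbl2. All 10 were found among the 34745 genes of the count table, and all 10 were among the 12662 genes with a summed count of at least 20, called tested below. RNA of gastrocnemius, a calf muscle, was sequenced from C57BL/6 mice aged 8 weeks. The flox/flox library carried the genotype CIPC-flox/flox, in which loxP sites flank Cipc, and the scKO library the genotype CIPC-scko, read from the title of the series as a deletion of Cipc in satellite cells. Neither the Cre line that made the deletion nor a pooling of animals is named in the labels, and mdx, which stands in the title, is absent from the labels of both libraries.

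G1 is the phase in which a cell either commits to copying its DNA or leaves the cycle. D-type cyclins bind CDK4 and CDK6, and cyclin E binds CDK2; these kinases phosphorylate the pocket proteins, which otherwise hold E2F transcription factors in a repressed state. INK4 inhibitors such as p18, encoded by Cdkn2c, block CDK4 and CDK6, while CIP/KIP inhibitors such as p27, encoded by Cdkn1b, act on cyclin-CDK complexes more widely. Muscle fibres are postmitotic, and pocket proteins and CDK inhibitors are known for keeping their nuclei out of the cycle, whereas satellite cells, the stem cells of muscle, can re-enter it.

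With 1 library per genotype there was no replicate, so every difference below is one between these libraries, and no p-value was computed. A ratio is given as log2 of scKO over flox/flox after library scaling, followed by its exact 95% interval, which covers counting error only. Over all tested genes 12.8% of intervals lay above 0, 12.3% below 0 and 74.9% included 0. The libraries held 14727219 (flox/flox) and 13842100 (scKO) counts. Cipc itself had 658 flox/flox counts and 111 scKO counts (log2 ratio -2.51, -2.82 to -2.22), an 82.5% decrease in bulk muscle. The cells that lost this RNA were not told apart here, and a deletion limited to satellite cells is read from the title alone. All 8 markers of muscle fibres were abundant in both libraries, with a summed level of 150244 CPM (counts scaled to a common library size) in the first library and 140513 in the second; 2 of their intervals lay above 0 and 6 below.

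The sequences shown first are promoter matches to motifs of factors tied to CIPC or to the pocket proteins. CIPC protein inhibits CLOCK and BMAL1, which bind the E-box CACGTG, and E2F factors are the targets of the pocket proteins, so these motifs were searched in the promoters of the members. RefSeq windows on GRCm38.p6, from 250 bases before to 50 after a start site, were at hand for 7 of the 10 members, in 9 windows; Ccnd1, Ccnd2 and Rb1 had none. The promoter of Cdk4 held the E-box 4 times, at 172, 118, 98 and 11 bases before the start, and that of Cdk6 held it 1 time, 220 bases before the start. In the lines below the capitals mark the match, and each run of 30 bases reads 5′ to 3′ on the strand of its gene.
Cdk4 E-box, plus strand, chr10:127063351-127063380: atggcagccagtCACGTGccacacagcgta
Cdk4 E-box, plus strand, chr10:127063405-127063434: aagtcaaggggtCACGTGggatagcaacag
Cdk4 E-box, plus strand, chr10:127063425-127063454: atagcaacaggtCACGTGgccgtcagggcc
Cdk4 E-box, plus strand, chr10:127063505-127063534: actgcgcaagggtgaagatCACGTGtccag
Cdk6 E-box, plus strand, chr5:3343661-3343690: gttctgcggcccCACGTGggtgaacccccg
Cdk2 E2F-type match, minus strand, chr10:128705173-128705202: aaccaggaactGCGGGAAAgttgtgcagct

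The E-box is its own reverse complement, so one search covered both strands. It was present in 2349 of 32851 promoter windows (7.15%) and occurred at least 4 times in 8 of them (0.0244%), that of Cdk4 included. A further match in Cdkn2c lay 34 bases after a start site and is not printed. The E2F-type letters TTTCCCGC or TTTGGCGC, on either strand, were present in 514 windows (1.56%) and, among the members, in that of Cdk2 alone, 140 bases before the start. A further pair of motifs was searched and is not printed. GGGCGG was present in 7 of the 9 member windows, beside 35.7% of all windows. The FoxO-type letters TGTTTAC were present in 1 member window, of Ccnd3, beside 3.65% of all. In GENCODE M21, also on GRCm38, the first 3 Cdk4 matches lie outside any gene and the last printed run touches the first base of Cdk4. The Cdk6 run lies in an intron of Cdk6, whose annotated span begins farther upstream. The Cdk2 run lies within Pmel on the opposite strand, with 23 of its bases in a noncoding part of a Pmel exon; Pmel had 0 flox/flox counts and 1 scKO counts. These matches describe letters in a window, and no binding was measured here.

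The D-type cyclins were all expressed at low levels, and each had fewer counts in scKO. Ccnd1 (ENSMUSG00000070348, chromosome 7, 144929931 to 144939925, minus strand), which is induced by growth factors, had 113 flox/flox counts and 85 scKO counts, or 7.78 and 6.06 CPM. Its log2 ratio of -0.36 (-0.78 to 0.06) was the lowest of the 10 members, with an interval that includes 0. Ccnd2 (ENSMUSG00000000184, chromosome 6, 127125162 to 127152193, minus strand) had 120 and 106 counts, or 8.26 and 7.56 CPM, with a log2 ratio of -0.13 (-0.52 to 0.26). Ccnd3 (ENSMUSG00000034165, chromosome 17, 47505051 to 47599691, plus strand), which is induced in differentiating muscle cells, had the most counts of this group, 186 and 153, or 12.8 and 10.9 CPM. The log2 ratio of Ccnd3 was -0.23 (-0.55 to 0.09). None of the D-type cyclins was thus separated between the libraries by counting error alone.

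Summed over the D-type cyclins, a sum chosen after the counts were seen, flox/flox had 419 counts and scKO 344 (log2 ratio -0.23, -0.44 to -0.02). That interval lies below 0 but reached 0.01 when libraries were scaled by total count, so the call depends on the scaling. The makeup of the group was nearly equal in both libraries: Ccnd3 gave 44.4% of the D-type cyclin counts in flox/flox (Clopper-Pearson 95% interval 39.6 to 49.3) and 44.5% in scKO (39.1 to 49.9). The share of Ccnd1 lay within 22.8 to 31.5% and 20.2 to 29.6% in the same order, and that of Ccnd2 was 28.6% (24.4 to 33.2) and 30.8% (26.0 to 36.0). In bulk muscle, fewer cells of a type and less RNA per cell cannot be told apart. Of the 8 satellite cell markers, 7 intervals included 0 and 1, that of Pax7, lay below 0. Their summed level was 113.6 CPM (flox/flox) and 116.1 CPM (scKO) with none at 0. Itga7 alone gave 63.9 and 64.0 CPM of these sums, so they say little about the other markers. Pax7 stood at 4.75 and 2.78 CPM and Myf5 at 1.58 and 2.42 CPM, and 5 of the 8 ratios lay above 0 and 3 below. The part of satellite cells in the cyclin values was not tested. Fibro-adipogenic progenitors are mesenchymal cells found between muscle fibres. Their markers were lower beside the cyclins, with 4 of 8 intervals below 0, none above, and a summed level of 513 CPM (flox/flox) and 423 CPM (scKO), none of them at 0. Of the 6 erythroid markers, 5 were tested and had intervals below 0, with summed levels of 146 and 112 CPM, and Slc4a1 had 0 counts in scKO. Over all tested genes 12.3% of intervals lay below 0 and 12.8% above. Markers of macrophages (55.9 and 57.2 CPM), of smooth muscle and pericytes (484 and 490 CPM) and of Schwann cells (46.7 and 44.6 CPM) had 1, 1 and no intervals above 0 and 1, none and 1 below. Lymphocyte markers were near the limit of detection, at 3.37 and 2.92 CPM, with Cd3e at 0 in both libraries and Trbc2 at 0 in scKO. The part of these cell types in the cyclin values was not tested.

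**Figure D1:**
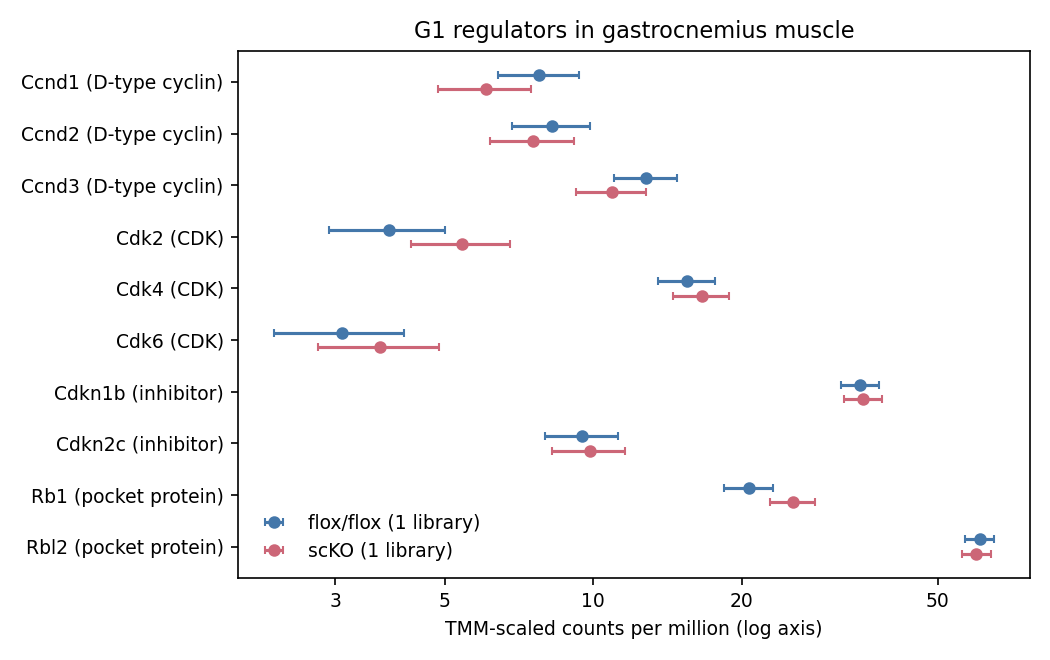
Levels in CPM of the 10 members on a log axis, blue for the flox/flox library and red for the scKO library; bars are exact Poisson 95% intervals of the count. The members run from Cdk6 at 3.10 and 3.71 CPM to Rbl2 at 60.8 and 59.8 CPM, and the bars of the libraries overlap for every gene, narrowly for Rb1.

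The CDKs had more counts in scKO in all 3 cases. Cdk4 (ENSMUSG00000006728, chromosome 10, 127063534 to 127067920, plus strand), the better counted of both partners of D-type cyclins, had 225 and 233 counts, or 15.5 and 16.6 CPM. The log2 ratio of Cdk4, whose promoter holds the 4 E-boxes shown above, was 0.10 (-0.17 to 0.37), so its fold lay between 0.889 and 1.29 by counting error. Cdk6 (ENSMUSG00000040274, chromosome 5, 3341485 to 3531008, plus strand), its paralog, had 45 and 52 counts, or 3.10 and 3.71 CPM, with a log2 ratio of 0.26 (-0.34 to 0.87). The Cdk6 interval is wide because the counts are few. Together Cdk4 and Cdk6 had 270 and 285 counts, of which Cdk4 gave 83.3% (78.3 to 87.6) in flox/flox and 81.8% (76.8 to 86.1) in scKO.

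Cdk2 (ENSMUSG00000025358, chromosome 10, 128697939 to 128705031, minus strand), the kinase that works with cyclin E at the start of DNA synthesis, had 56 flox/flox counts and 76 scKO counts, or 3.85 and 5.42 CPM. Its log2 ratio of 0.49 (-0.02 to 1.02) was the highest of the members. The interval just includes 0, and with total-count scaling it lay just above it (0.53, 0.01 to 1.05). Among 3506 tested genes with summed counts from 0.5 to 2 times that of Cdk2, 19.5% had an absolute log2 ratio at least as large.

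The inhibitors were among the closest matches between the libraries. Cdkn1b (ENSMUSG00000003031, chromosome 6, 134920401 to 134925513, plus strand), which encodes p27, had 506 and 495 counts, or 34.8 and 35.3 CPM (log2 ratio 0.02, -0.16 to 0.20). Cdkn2c (ENSMUSG00000028551, chromosome 4, 109660876 to 109667189, minus strand), which encodes p18, had 138 counts in each library, or 9.50 and 9.84 CPM (log2 ratio 0.05, -0.30 to 0.40). For Cdkn1b the counts limit the fold to between 0.894 and 1.15, and for Cdkn2c to between 0.812 and 1.32. By counting error alone, a 2-fold difference of either inhibitor between these libraries is outside the interval.

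Of the pocket proteins, Rb1 stood higher in scKO and Rbl2 lay near 0. Rb1 (ENSMUSG00000022105, chromosome 14, 73183673 to 73325822, minus strand), which encodes the retinoblastoma protein, had 301 flox/flox counts and 356 scKO counts, or 20.7 and 25.4 CPM. Its log2 ratio of 0.29 (0.07 to 0.52), a fold of 1.23 (1.05 to 1.43), was the single member interval that excluded 0. Rbl2 (ENSMUSG00000031666, chromosome 8, 91070057 to 91123844, plus strand), which encodes p130, the pocket protein typical of resting cells, had the most counts of all members, 883 and 839, or 60.8 and 59.8 CPM. The log2 ratio of Rbl2 was -0.02 (-0.16 to 0.12), with a sign that turned with total-count scaling (0.02).

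Because both genes were read in the same libraries, the ratio of Rb1 to Rbl2 does not depend on library scaling. It was 0.341 in flox/flox and 0.424 in scKO, a ratio of ratios of 1.24 (1.04 to 1.50, conditional exact 95% interval). Pairs of members with the same role were compared in this way, 8 in number, and the intervals of the other 7 included 1. Endothelial markers were divided, with 4 ratios above 0 and 4 below. Of their 8 intervals 3 lay above 0 and 5 included it, beside 12.8% above 0 among all tested genes. Those above 0 belonged to Flt1 (0.45), Tek (0.33) and Cdh5 (0.13). None of the markers was at 0, and the summed levels were 254 CPM (flox/flox) and 289 CPM (scKO). The part of endothelial cells in the Rb1 value was not tested. Among genes with summed counts from 0.5 to 2 times that of Rb1, 17.1% of 4273 had an absolute log2 ratio at least as large.

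Exons of neighbouring genes overlap those of 8 members, and the sources used here do not say whether reads were counted by strand. Rb1 shares 408 exonic bases (6.78% of its merged exons) with Lpar6, a receptor gene nested in Rb1 on the opposite strand, which had 43 and 64 counts (log2 ratio 0.62, 0.04 to 1.22). It shares 488 more with Rcbtb2, which had 220 and 187 counts (-0.18, -0.47 to 0.10). Ccnd1 shares 1100 bases (23.4%) with Lto1 (ENSMUSG00000031072), which had 163 and 141 counts (-0.16, -0.49 to 0.18), and Cdk4 shares 641 bases (19.7%) with Tspan31, which had 334 and 295 counts (-0.13, -0.36 to 0.10). Rbl2 shares 892 bases (11.8%) with ENSMUSG00000109727, a sense intronic gene on the opposite strand for which the count table gave no value. Aktip, which shares 693 bases with Rbl2, had 790 and 754 counts, and Bysl, which shares 361 with Ccnd3, had 356 and 370. The part of these neighbours in the member counts was not tested. A near-identical processed copy of Ccnd3, Ccnd3-ps, aligned over 881 bases at 96.3% identity and had 0 and 1 counts.

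**Figure D2:**
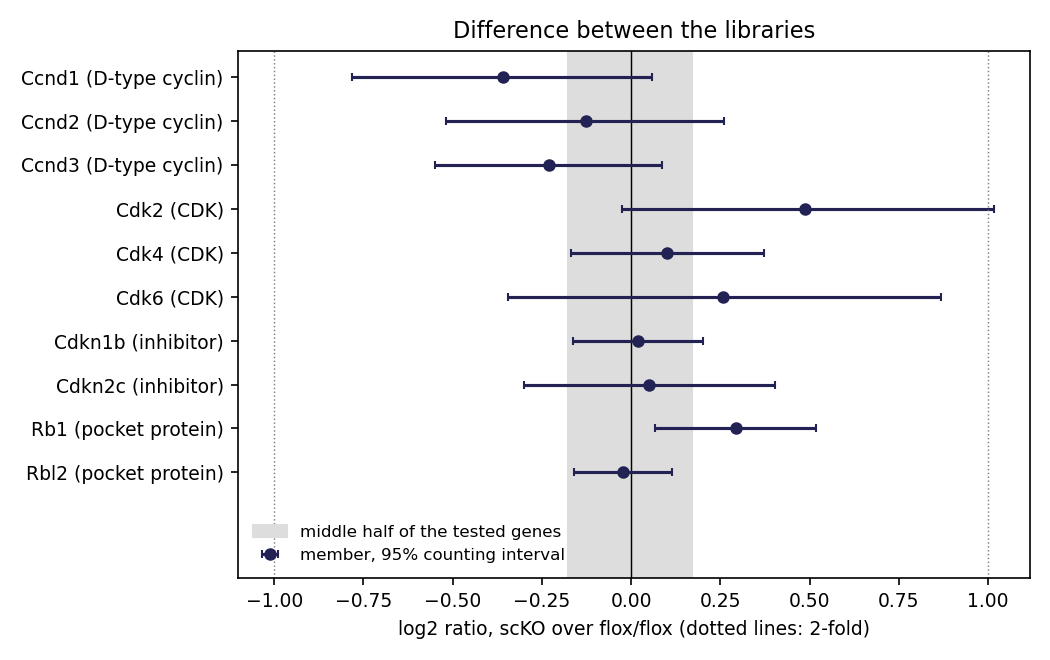
Log2 ratio of scKO over flox/flox for each member, with its exact 95% counting interval; the grey band spans the quartiles of all tested genes (-0.18 to 0.17) and dotted lines mark 2-fold. The interval of Rb1 lies above 0, the other 9 include 0, and no member reaches 2-fold.

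Read together, 1 of the 10 members had an interval above 0 and none had one below. That share was near the 12.8% of intervals above 0 among all tested genes, beside 12.3% below 0. With total-count scaling the tested genes with intervals above and below 0 numbered 2101 and 1228, against 1620 and 1562 with the scaling used here. No member was at least 2-fold apart. Among all tested genes the share that reached 2-fold with an interval excluding 0 was 1.49% on the higher side and 1.91% on the lower. None among 10 genes is near these small shares and does not set the members apart. The median log2 ratio of the members was 0.04, with 6 ratios above 0 and 4 below, beside a median of 0.00 over all tested genes.

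**Figure D3:**
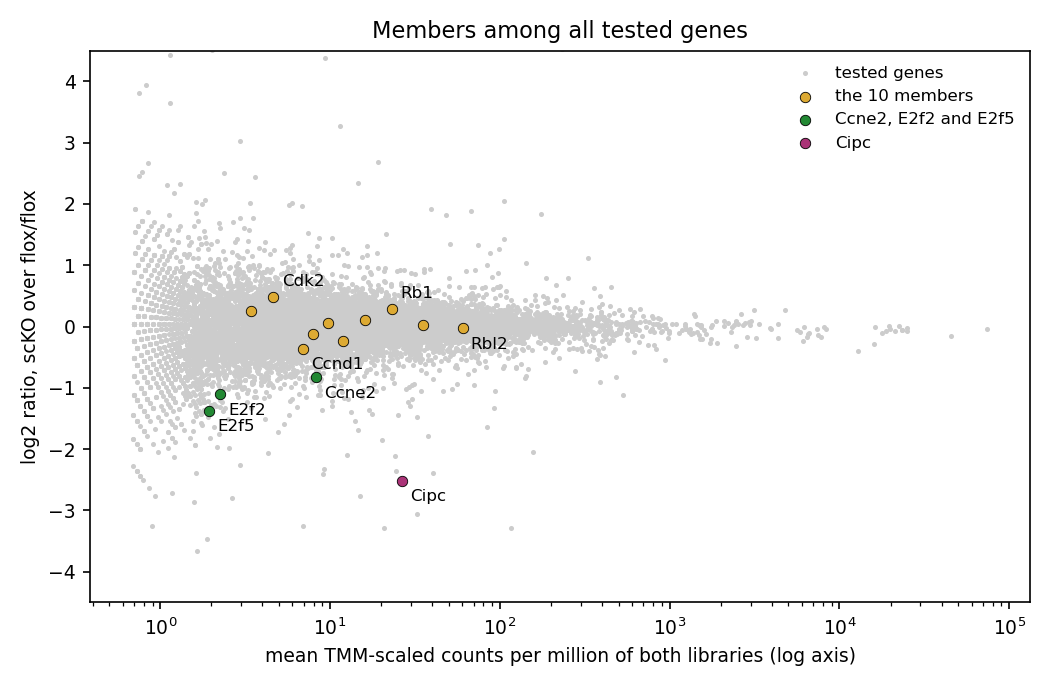
Log2 ratio of scKO over flox/flox against the mean CPM of both libraries (log axis) for the tested genes (grey; 16 lie beyond the plotted range of 4.5 either way), with the members in yellow. The members lie within the main cloud between -0.36 and 0.49, while Ccne2, E2f2 and E2f5 (green) lie at -0.83, -1.10 and -1.37 and Cipc (purple) at -2.51.

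Levels can be compared between genes only per length, for which the deposited FPKM, counts divided by gene length and library total, were used. In flox/flox Rbl2 was highest at 7.01 FPKM, followed by Cdkn1b at 4.53, Cdkn2c at 3.32, Rb1 at 3.01 and Cdk4 at 2.39. Ccnd1 followed at 1.82, Cdk2 at 1.56, Ccnd3 at 0.776, Ccnd2 at 0.660 and Cdk6 last at 0.178. On this scale the inhibitors and pocket proteins stood above every cyclin and CDK, which does not hold for Cdk4 on the scale of merged exons given below. By counting error 3 pairs of neighbours in that order were not separated: Cdkn2c and Rb1, Ccnd1 and Cdk2, and Ccnd3 and Ccnd2.

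In scKO the highest was again Rbl2 at 7.08 FPKM and the lowest Cdk6 at 0.219. The order of the remaining genes was Cdkn1b (4.72), Rb1 (3.78), Cdkn2c (3.53), Cdk4 (2.64), Cdk2 (2.26), Ccnd1 (1.46), Ccnd3 (0.679) and Ccnd2 (0.620). Neighbours in this order were not separated for Rb1 and Cdkn2c, Cdk4 and Cdk2, and Ccnd3 and Ccnd2. Between the libraries, Cdkn2c and Rb1 exchanged places, as did Ccnd1 and Cdk2. Counting error did not separate Cdkn2c from Rb1 in either library, nor Ccnd1 from Cdk2 in flox/flox. On the scale of merged exons given below, Ccnd1 stood above Cdk2 in both libraries.

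The order depends on the length that is used. For 7 members the length implied by FPKM, count and total equalled the added lengths of every exon annotated differently in GENCODE M21, a sum that counts overlapping exons of different transcripts more than once, and for Cdk2, Ccnd1 and Rbl2 it did not. For Cdk4 this length, 6385 bases, was 1.97 times its merged exons, and for Cdk2, 2432 bases, it was 0.391 times. As RPKM computed over merged exons, Cdk4 came next after Rbl2 and Cdkn1b, at 4.70 in flox/flox and 5.18 in scKO, above Rb1 (3.40 and 4.28) and Cdkn2c (3.49 and 3.71). Cdk2 then stood among the lowest, at 0.611 and 0.883, and Ccnd3 came closer to Ccnd1, at 1.44 against 1.63 in flox/flox. Rbl2 (7.93 and 8.02) and Cdkn1b (7.55 and 7.86) were the highest members on this scale and were not separated from each other, and Cdk6 (0.218 and 0.269) was the lowest.

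**Figure D4:**
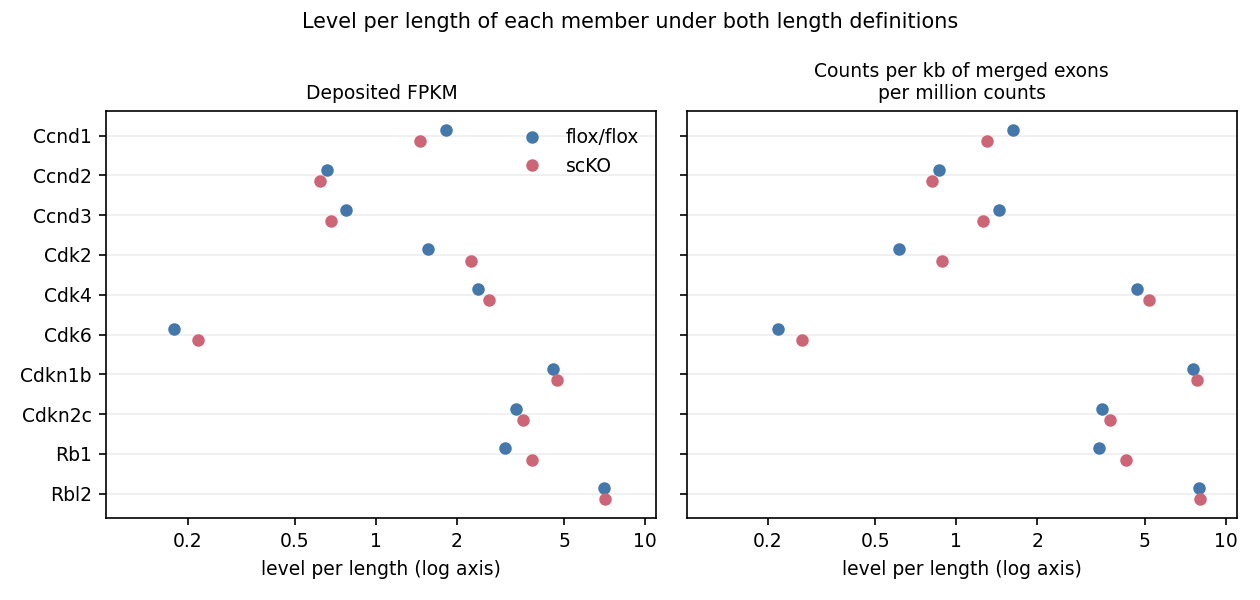
Level per length of each member on log axes, as deposited FPKM (left) and as RPKM over merged exons (right), blue for flox/flox and red for scKO. Rbl2 and Cdkn1b are highest and Cdk6 is lowest in both panels, while Cdk4 moves up and Cdk2 moves down from left to right.

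Outside the members, the strongest difference among G1 cyclins was that of Ccne2, a partner of CDK2. Ccne2 (ENSMUSG00000028212, chromosome 4, 11191351 to 11204779, plus strand) had 153 flox/flox counts and 83 scKO counts (log2 ratio -0.83, -1.23 to -0.44), while Ccne1 had 4 and 6 counts and was not tested. Ccne2 shares 609 exonic bases (17.4%) with Ints8 on the opposite strand, which had 203 and 190 counts (-0.04, -0.34 to 0.25). The CIP/KIP inhibitor Cdkn1a, which encodes p21, had 83 and 126 counts (0.65, 0.24 to 1.07). Cdkn1a thereby gave 9.46% (7.61 to 11.6) of the counts of the 3 CIP/KIP genes in flox/flox and 14.2% (12.0 to 16.7) in scKO, and Cdkn1b 57.7% and 55.9%. These shares take no account of gene length. Cdkn1c had 288 and 265 counts (-0.07, -0.32 to 0.18) and was the highest of the 3 per length. It gave 52.2% and 47.0% of their FPKM, against 34.0% and 32.6% for Cdkn1b. The third pocket protein, Rbl1, which encodes p107, had 40 and 47 counts (0.28, -0.36 to 0.93), or 3.27% and 3.78% of the pocket protein counts. Of the INK4 genes, Cdkn2b had 9 and 11 counts (0.32, -1.07 to 1.79) and Cdkn2a 0 and 2. Cdkn2d had 98 and 96 counts (0.02, -0.40 to 0.44). Per length it stood above the member Cdkn2c, at 5.24 and 5.46 FPKM against 3.32 and 3.53. Of the 6 tested genes of this list, 1 interval lay above 0 and 1 below, and the median was 0.15. The shares over all tested genes were 12.8% above 0 and 12.3% below.

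The E2F and DP factors, through which the pocket proteins act, were divided. E2f5 (ENSMUSG00000027552, chromosome 3, 14578641 to 14606309, plus strand), a repressor-type E2F that binds p130, had 41 flox/flox counts and 15 scKO counts (log2 ratio -1.37, -2.36 to -0.52). E2f2 (ENSMUSG00000018983, chromosome 4, 136172394 to 136196057, plus strand), an activator, had 45 and 20 counts (-1.10, -1.96 to -0.33). E2f6, a repressor that does not bind pocket proteins and the most abundant E2F here, had 1887 and 2100 counts (0.21, 0.12 to 0.30), and the DP partner Tfdp2 had 202 and 238 (0.29, 0.01 to 0.57). Of the 7 tested factors 2 intervals lay above 0 and 2 below, the latter both at least 2-fold, and the median was -0.02. The shares over all tested genes were 12.8% above 0, 12.3% below and 1.91% at least 2-fold lower with an interval below 0. Among genes with summed counts from 0.5 to 2 times their own, 3.97% (E2f5) and 6.33% (E2f2) had an absolute log2 ratio at least as large. E2f1 (11 and 6 counts), E2f7 (12 and 6) and E2f8 (11 and 2) had fewer counts in scKO but were too low to be tested.

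The MuvB core joins p107 or p130 with E2F in the DREAM complex, which represses cell cycle genes in resting cells. All 5 of its tested genes had intervals that include 0, as did 74.9% of all tested genes. Lin37 stood at -0.47 (-1.17 to 0.21), Lin9 at -0.37 (-0.80 to 0.06), Lin54 at -0.34 (-0.79 to 0.09), Rbbp4 at -0.07 (-0.25 to 0.11) and Lin52 at 0.14 (-0.22 to 0.50). The median was -0.34, with 4 ratios below 0.

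Genes that DREAM and E2F control, from DNA synthesis to mitosis, did not share a direction. Of 18 listed, 11 were tested, with a median of 0.06 and with 10 intervals that include 0, beside 74.9% over all tested genes. The proliferation marker Mki67 had 18 and 4 counts (-1.99, -4.14 to -0.52). The replicative helicase genes Mcm5 (14 and 22 counts; 0.68, -0.33 to 1.78) and Mcm6 (42 and 26; -0.63, -1.41 to 0.10) lay on opposite sides of 0, and Rrm2 of ribonucleotide reductase had 20 and 27 (0.47, -0.40 to 1.40). The 7 untested genes, which include Ccna2, Cdk1 and Ccnb1, had 11 counts or fewer in each library.

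Genes that act on G1 kinases after transcription were read in a pair of lists. Of 7 tested genes for the CDK-activating kinase and for the kinases and phosphatases of CDK inhibitory phosphorylation, every interval included 0. The values farthest from 0 were those of Wee1 (0.38, -0.20 to 0.96), Pkmyt1 (0.24, -0.88 to 1.39), Cdc25a (-0.16, -0.57 to 0.25) and Mnat1 (-0.12, -0.41 to 0.18). Of 11 tested genes for the turnover of cyclin D, cyclin E and p27, 2 intervals lay above 0 and none below, with a median of 0.05. For both lists, the shares over all tested genes were 12.8% above 0, 12.3% below and 74.9% including 0. Fbxo31, a ubiquitin ligase subunit for cyclin D1, had 1553 and 1738 counts (0.21, 0.11 to 0.31), and Ddb1 had 2217 and 2299 (0.10, 0.02 to 0.19). Cks1b (-0.98, -2.20 to 0.08), Skp2 (0.86, -0.11 to 1.94) and Fbxo4 (0.66, -0.10 to 1.48) rested on 37 counts or fewer per library.

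**Figure D5:**
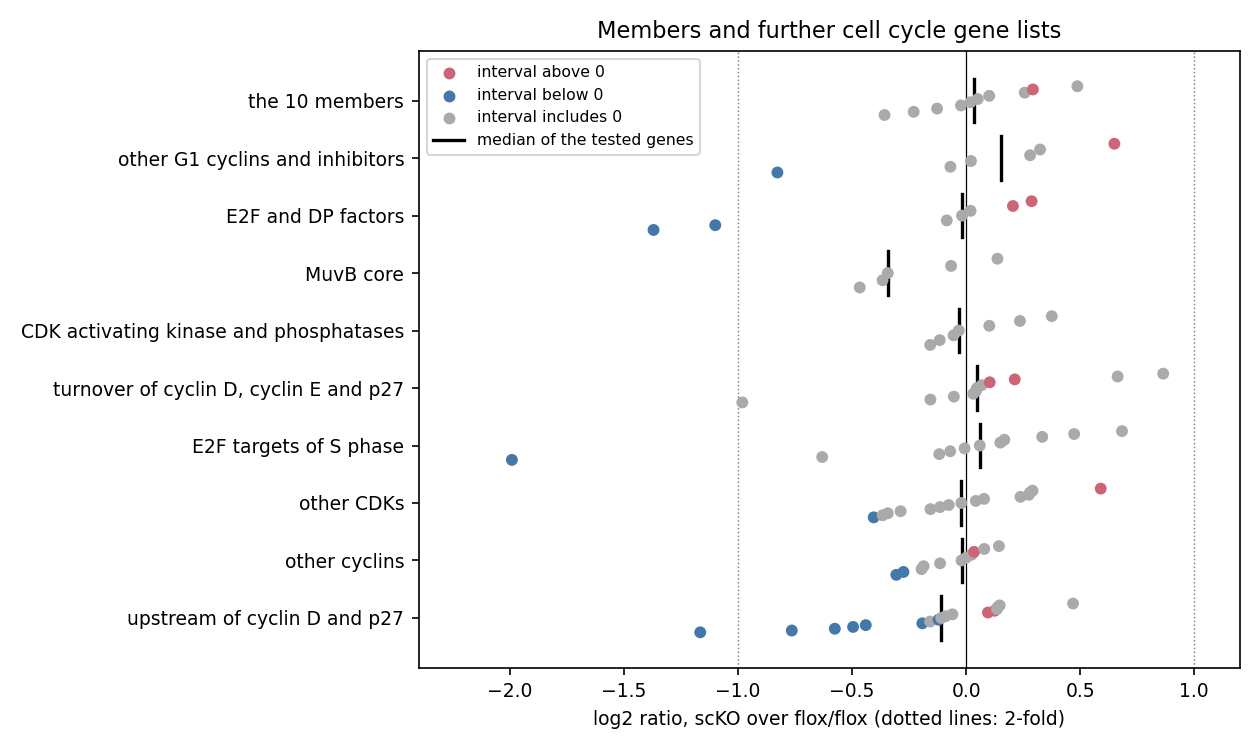
Log2 ratios of the members and of the tested genes of 9 further lists, red where the counting interval lies above 0, blue where it lies below and grey where it includes 0; black bars are medians and dotted lines mark 2-fold. The members span -0.36 to 0.49, while E2f2, E2f5, Mki67 and Myog lie beyond 2-fold on the lower side.

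Regulators that act upstream of cyclin D and p27, or with the pocket proteins in muscle, were more often lower than higher. Of 17 tested, 7 intervals lay below 0, 2 above and 8 included 0, with a median of -0.11. Over all tested genes 12.3% of intervals lay below 0 and 12.8% above. Genes with many counts have narrow intervals: that of Ctnnb1 lay below 0 at a ratio of -0.12 and that of Foxo4 above 0 at 0.10. Myog, the myogenin gene of differentiating muscle cells, had 82 and 35 counts (-1.17, -1.79 to -0.59) and was the single gene of this list beyond 2-fold. Pax7, the satellite cell factor, had 69 and 39 (-0.76, -1.38 to -0.19), Myod1, the myogenic determination factor, had 201 and 130 (-0.58, -0.91 to -0.25), and Myc, an inducer of cell cycle genes, had 101 and 69 (-0.50, -0.96 to -0.04). These regulators were chosen as a list with earlier results of the libraries known, so their direction adds no independent evidence.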

How the data were processed

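Per the file headers, the authors deposited a table of raw counts per Ensembl gene, with 1 column per library, and a table of FPKM for each library; both kinds were read as deposited. CASAVA, StringTie 1.3.0, HISAT2 2.0.4 and the build GRCm38 are named, without their roles, by the submitters' processing notes. The annotation release, the counting options and the strand setting are not given in the sources used here. Names came from a reference table that matched 34267 of 34745 identifiers. TMM factors from edgeR 4.0.16 (R 4.3.3) set the effective library sizes. Log2 ratios used a prior count of 0.5, and genes with a summed count of at least 20 were called tested. Intervals are exact conditional binomial (Clopper-Pearson) at 95% and cover counting error only, as PCR copies and differences between animals are outside them. In CPM, 1 count was 0.0688 in flox/flox and 0.0713 in scKO, and 3 counts, the limit allowed by a count of 0, were 0.206 and 0.214. Other scalings (DESeq2 1.42.0 size factors, upper quartile, total count), filters and prior counts were tried. The procedure was tested on simulated counts. Positions, exons and overlaps came from GENCODE M21, and promoter sequences from RefSeq, both on GRCm38. Computation used Python 3.11.15, scipy 1.17.1 and pandas 2.3.3. The members, the 9 further gene lists and the 9 lists of cell type markers were chosen with earlier results of these data known. Named genes are the members, Cipc, genes whose exons overlap a member, and from each list every gene of lists of 6 or fewer genes or, in longer lists, the 4 tested genes with the largest absolute ratio; others were named after their values were seen. A gene that this rule names is not reported here.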

Additional observations from a re-analysis of the deposited data

How the results depend on the processing

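No paired analysis was possible because each genotype has 1 library, and for the same reason no replicate could be left out. Under 4 other scalings, 38 of 40 member intervals stayed on the same side of the threshold; the exceptions were those of Cdk2, whose interval lay above 0 with total counts (0.53) and with total counts without mitochondrially encoded genes (0.53). Rbl2, whose interval included 0 throughout, turned from -0.02 to 0.02 with total counts and to 0.01 on the log2(FPKM + 1) scale; FPKM give no interval. The summed D-type cyclins, at -0.23, no longer had an interval below 0 with total counts (-0.19) or with total counts without mitochondrially encoded genes (-0.20); those settings were applied to the sum after the data were seen. They shift every ratio by 0.0383 and 0.0377, which is the whole of these changes. With total counts, the medians of the E2F and DP factors, the other CDKs and the other cyclins moved from -0.02 to 0.02, and in the list of upstream regulators the interval of Ctnnb1 came to include 0 and that of Akt1 to lie above it. The interval of Akt2 came to include 0 with the size factors of DESeq2. Without a filter, 369 genes were at least 2-fold lower, against 242 tested ones. With a summed count of at least 100, when fewer genes are tested, 58 were at least 2-fold higher and 68 lower, against 189 and 242. The median level per length of the members in flox/flox was 2.11 FPKM and 2.51 per kilobase of merged exons. In scKO it was 2.45 and 2.51. Cdk6 and Cdk2, on 45 to 76 counts, have the widest intervals among the members, 0.788 to 1.83 and 0.983 to 2.02 as folds, and differences within them were not detectable at this depth.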

Other observations

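CDKs and cyclins outside the G1 group are given beside all tested genes, of which 74.9% had an interval that includes 0. Of 15 tested CDK genes with other roles, 1 interval lay above 0, 1 below, and 13 included 0, with a median of -0.02. Cdk19, a kinase of the Mediator complex, had 973 flox/flox counts and 709 scKO counts (log2 ratio -0.41, -0.55 to -0.26), while its paralog Cdk8 had 196 and 229 (0.27, -0.01 to 0.56). Cdk18 had 48 and 70 counts (0.59, 0.05 to 1.16) and Cdk17 107 and 80 (-0.37, -0.80 to 0.06). Of 11 tested cyclins with other roles, 1 interval lay above 0, 2 below and 8 included 0, with a median of -0.02. Ccng2 stood at -0.31 (-0.60 to -0.01), Ccnl2, a cyclin tied to splicing, at -0.27 (-0.43 to -0.12), Ccnj at -0.20 (-0.70 to 0.30) and Ccnl1 at -0.19 (-0.43 to 0.05). Ccng1 had the most counts of any cyclin examined, 14923 and 14758 (0.04, 0.00 to 0.07). The Ccng2 interval included 0 with total-count scaling, and that of Ccng1 with the size factors of DESeq2 and with upper quartile scaling. That of Cdk8 lay above 0 with total counts, and that of Ccnk below 0 with the size factors of DESeq2.

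Among tested genes that could be matched to a promoter window by symbol, 1146 held at least 1 E-box CACGTG and had a median log2 ratio of 0.0074, with quartiles of -0.16 and 0.17. The 8512 without one had a median of 0.0021, with quartiles of -0.17 and 0.17.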
